A study of Rattus norvegicus with 20 samples.

Results

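A set of 10 genes of the fetal testis macrophage was followed across 20 arrays of the embryonic rat testis. They were Cd53, Laptm5, C1qa, C1qb, Cd68, Csf1r, Ptprc, Mrc1, Tyrobp and Ncf4, taken as every probe set that the platform annotation pairs with these symbols. This gave 12 probe sets of 31042, for 10 genes of 14217. Of the 12, 11 reached the 40th percentile of signal on at least 2 arrays and were tested, so that each of the 10 genes had a tested probe set. Laptm5 and Ptprc have 2 probe sets each, and the one of higher mean signal stood for the gene.

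Macrophages settle in the gonad as it forms. In mouse they come from the yolk sac and fetal liver, clear dying cells and lie along the vessels that partition the testis into cords. Their survival depends on signalling through the receptor encoded by Csf1r, and they are recognised by complement C1q, lysosomal proteins and signalling adaptors of the myeloid lineage.

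The 12 in utero arrays came from Sprague-Dawley embryos whose dams were injected each day from embryonic day 8 (E8) to E14 with vinclozolin, a fungicide whose metabolites block the androgen receptor, at 100 mg/kg, or with its DMSO vehicle. Testes were taken at E13, before the end of this course, at E14, its last day, and at E16, after its end. The groups were thus vinclozolin and vehicle at each stage, with 2 arrays per group. The 8 culture arrays came from E13 gonads kept for 3 days with the mesonephros attached and separated from it before RNA was taken. One gonad of a pair received 50 µM vinclozolin and the other DMSO, or one received 0.5 µM flutamide, a drug that blocks the androgen receptor, and the other ethanol. Nothing in the labels says whether an array held 1 animal or a pool, so every p-value below measures the spread between these arrays, which may be technical.

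Signal is MAS5 intensity on a linear scale. Each experiment had its own scale, and the trimmed mean was 107 for arrays of the flutamide experiment, 218.1 for those of the vinclozolin cultures and 210.1 for testes taken in utero. Actin signal at the transcript's 3' end over that at its 5' end, a ratio that increases as RNA degrades, was 9.08 to 11.06 on the flutamide and ethanol arrays. It was 2.67 to 3.9 on the vinclozolin and DMSO culture arrays, and 1.73 to 3.47 on arrays of testes in utero. Several arrays stood apart. The E13 arrays numbered 1 had Xist, the transcript of an inactive X chromosome, at 896 (vinclozolin) and 758.6 (vehicle), against 17.9 and 20.4 on those numbered 2. They had the Sertoli cell hormone gene Amh at 372.4 and 106, against 1102.2 and 1484.7. At the same Xist probe set the second E14 vinclozolin array had 489.9 and the first 32, the E14 vehicle arrays 174.9 and 184.4, and the E16 arrays 2.4 to 16.6. At the other 3 Xist probe sets the first E14 vehicle array had 148.5, 100.1 and 41, against 43.6, 24.3 and 0.9 on the second, and Amh was 1553.9 against 5697.9. In culture, Xist was 112.8 on the second vinclozolin array, against 5.1 on the first and 5.2 and 5.4 on the DMSO arrays, and 168.2 to 211.9 on the 4 flutamide and ethanol arrays. The first E14 vehicle array had 14 immediate early genes summing to 8846, against 2771 on the second. Most of the members' results that rest on the E13, E14 and second culture vinclozolin arrays named here are also given without them. The fits below that average both treatments of a stage all kept the second E14 vinclozolin array. Values for the mean over the 3 stages and for the test between stages are given with all arrays.

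The members lay in the middle of the signal range. On all 20 arrays C1qa, C1qb, Csf1r, Laptm5, Mrc1 and Tyrobp were at or above the 40th percentile. Cd53 reached it on 18 arrays, Cd68 on 15, Ncf4 on 5 and Ptprc on 2. The second Laptm5 probe set reached it on 3 arrays and the second Ptprc probe set on 0. Ptprc encodes CD45, the phosphatase carried by all leukocytes, and Ncf4 a cytosolic subunit of the phagocyte oxidase. Both were under that percentile on most arrays. Among other macrophage surface genes, 6 to 10 of the 16 on the array reached that percentile, and Cd163, a scavenger receptor of mature macrophages, stayed under it at 0.6 to 14. Of 12 lymphocyte markers on the array, 1 to 3 did so. At the neutrophil markers, S100a8 and S100a9 stood out with 140.8 and 342.1 on the second E13 vinclozolin array and 73.5 and 180.7 on the second E13 vehicle array.

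C1qa and C1qb encode chains of the C1q molecule, which opens the classical complement pathway, and they share a locus with the gene of the remaining chain, C1qc. In the GRCr8 assembly C1qb spans chr5:154402276-154407827, C1qc chr5:154410845-154414208 and C1qa chr5:154417086-154419933. Laptm5, which encodes a lysosomal membrane protein of blood cells, lies elsewhere on the same chromosome, at chr5:148371880-148393927. Mrc1, the mannose receptor of tissue macrophages, lies at chr17:82157725-82239411, Csf1r at chr18:56834152-56860804 and Tyrobp at chr1:94800372-94804307.

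The sequence before the start of 4 of these genes is shown because many macrophage promoters lack a TATA box and carry purine-rich sites for PU.1, the transcription factor that sets up the myeloid lineage. Letters in capitals mark GAGGAA, a PU.1-type core, on either strand (TTCCTC on the strand shown where the match is on the other). Each window covers the 250 bases before the RefSeq gene start in GRCr8 and is written 5' to 3' along the gene.
C1qa (chr5:154419934-154420183, minus strand): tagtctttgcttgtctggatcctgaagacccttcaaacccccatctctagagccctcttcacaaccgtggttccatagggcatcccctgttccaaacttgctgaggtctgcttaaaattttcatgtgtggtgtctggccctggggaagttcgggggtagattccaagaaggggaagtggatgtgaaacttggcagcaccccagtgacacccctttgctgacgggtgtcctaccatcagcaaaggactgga
C1qb (chr5:154407828-154408077, minus strand): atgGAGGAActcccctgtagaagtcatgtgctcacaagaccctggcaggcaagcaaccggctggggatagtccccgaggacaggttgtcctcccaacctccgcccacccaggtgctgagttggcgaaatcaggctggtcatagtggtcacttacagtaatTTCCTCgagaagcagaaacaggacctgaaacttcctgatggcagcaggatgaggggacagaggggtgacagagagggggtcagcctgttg
Laptm5 (chr5:148371630-148371879, plus strand): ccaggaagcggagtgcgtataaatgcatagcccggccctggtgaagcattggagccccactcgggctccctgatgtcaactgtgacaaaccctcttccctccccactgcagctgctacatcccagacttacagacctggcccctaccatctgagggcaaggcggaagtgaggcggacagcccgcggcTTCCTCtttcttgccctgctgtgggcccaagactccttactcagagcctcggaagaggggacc
Mrc1 (chr17:82157475-82157724, plus strand): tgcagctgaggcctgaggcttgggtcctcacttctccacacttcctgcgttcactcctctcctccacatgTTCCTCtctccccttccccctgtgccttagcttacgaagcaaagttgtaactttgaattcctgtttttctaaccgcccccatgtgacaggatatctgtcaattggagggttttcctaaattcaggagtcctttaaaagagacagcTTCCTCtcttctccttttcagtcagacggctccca
C1qb and Mrc1 each held 2 matches, Laptm5 held 1 and C1qa held 0. Of the 8 members with a RefSeq promoter entry, 7 held at least 1 match, all but C1qa. Among these, the windows of Cd53, Csf1r and Ptprc, not shown, ran past the RefSeq gene start into the gene. In the 250-base windows of all 33469 promoter entries the share was 23.3%. TGANTCA, the site of AP-1 factors, was found in 1 of the 8, Cd68, and in 6.3% of all promoters. Tyrobp and Ncf4 had no entry. A match is a run of letters and not a measured site.

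**Figure D1:**
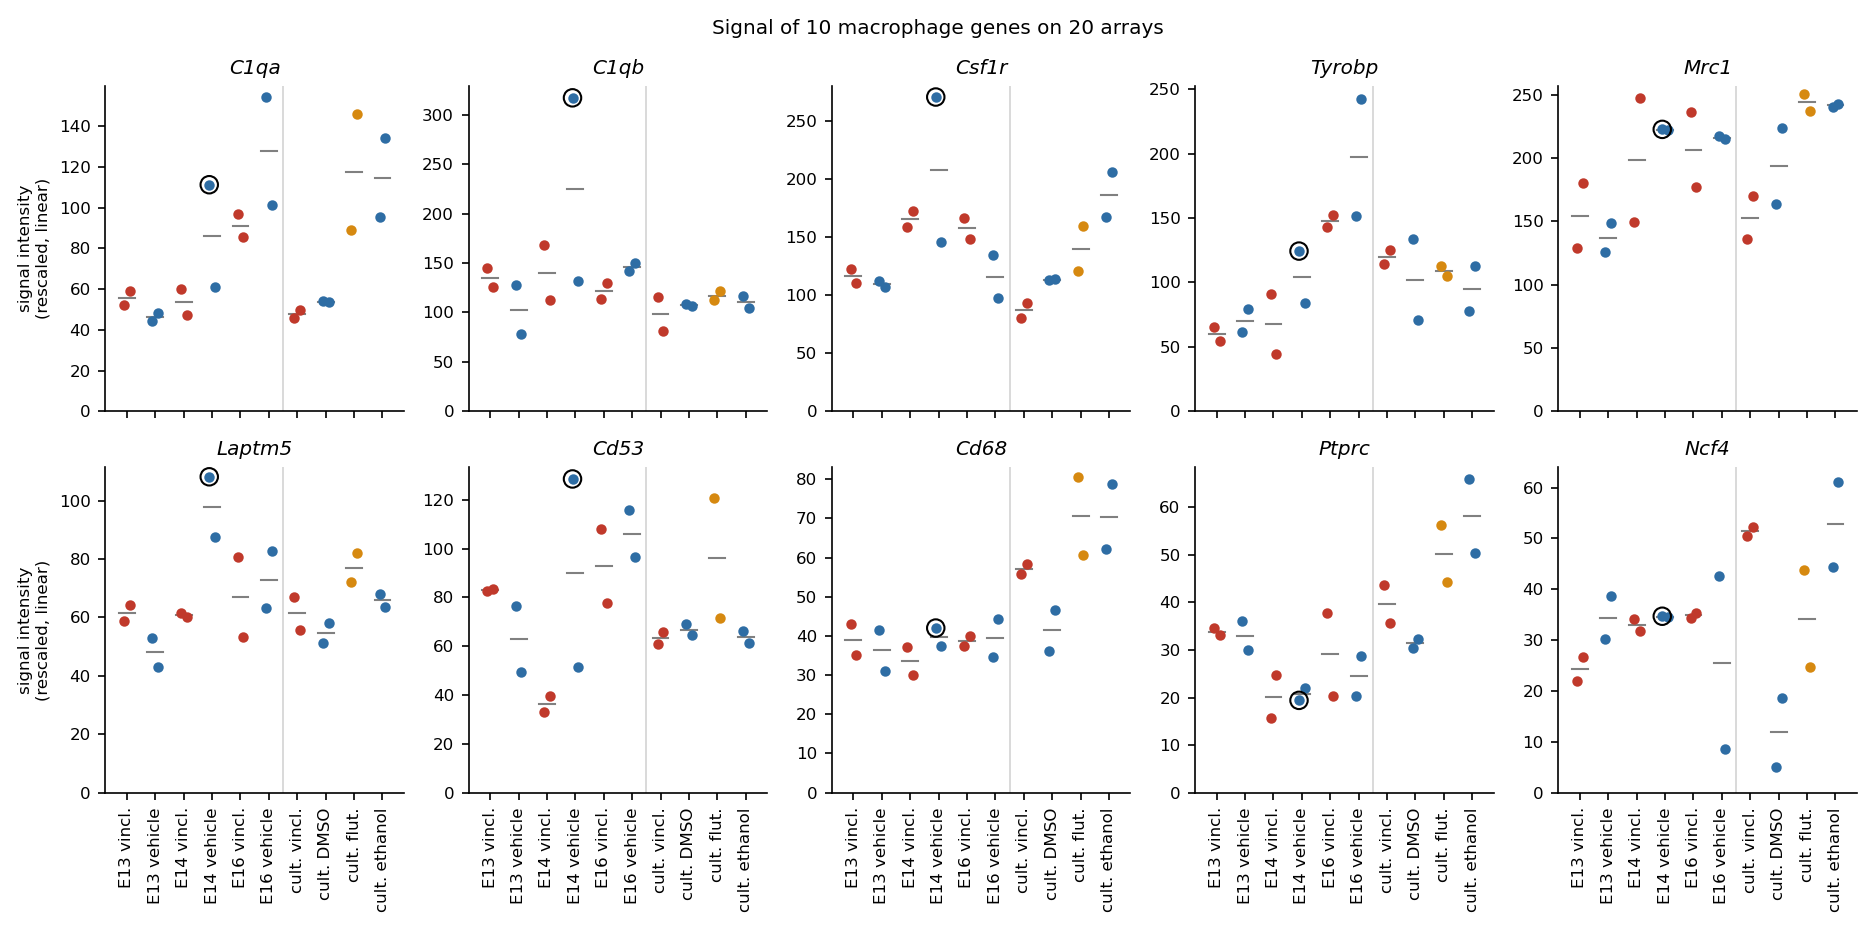
Signal intensity of the 10 genes on each array, with all experiments rescaled to the in utero trimmed mean. Points are arrays, grey lines the mean of 2, red vinclozolin, orange flutamide and blue the vehicles, and the ring marks the first E14 vehicle array. The ringed array is the highest of the 12 in utero arrays for C1qb, Csf1r, Laptm5 and Cd53.

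The stage course was read first in the vehicle testes, from E13 to E16. C1qa and Tyrobp, the adaptor that carries signals from TREM2 and related receptors, rose by more than 2-fold, and no other member was called. In a bulk sample more cells of a type and more RNA per cell cannot be told apart. C1qa had 44.3 and 48.3 at E13, 111.3 and 60.9 at E14, and 154.3 and 101.2 at E16. Both E16 arrays lay above both E13 arrays, as for 6 of 10 members and 22% of all tested probe sets, and the E14 arrays reached into the E16 range. The difference was 1.18 on the log2(signal + 16) scale (SE 0.27), so that signal + 16 was 2.27-fold higher at E16 than at E13. The adjusted p was 0.0102 (limma with Benjamini-Hochberg adjustment over all tested probe sets).

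Tyrobp had 61.4 and 79.1 at E13, 124.3 and 84.3 at E14, and 151.6 and 242.5 at E16. The stages did not overlap, and the order ran upward. E16 exceeded E13 by 1.28 (SE 0.30), or 2.43-fold, with a limma adjusted p of 0.0142. At this comparison 2 of 10 members were called, both higher, against 8.55% of all tested probe sets called in either direction and 4.39% called higher. The members' median difference was 0.47, against -0.04 over all tested probe sets, and 8 of 10 were higher. Without the first E13 vehicle array, which read high for Xist, the differences were 1.14 for C1qa and 1.13 for Tyrobp, and the adjusted p-values were 0.0686 and 0.108, so that 0 members passed. The C1qa call was also lost without the first E16 vehicle array (0.91, 0.102), and the Tyrobp call without the second (0.97, 0.148).

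The vinclozolin and vehicle arrays of each stage were also averaged, which puts 4 arrays behind each stage. This gave 3 calls between E16 and E13, for Tyrobp (1.20, limma adjusted p = 0.000889), C1qa (0.88, 0.00334) and Mrc1 (0.50, 0.0405). The shares of all probe sets given above are those of vehicle testes alone and do not apply to the averaged calls of this paragraph. With both E13 arrays numbered 1 left out, Tyrobp (1.17, 0.00976) and C1qa (0.83, 0.0371) still passed and Mrc1 did not (0.33, 0.302). Between E16 and E14, with the treatments averaged, Tyrobp rose by 0.92 (limma adjusted p = 0.00283), Cd53, a tetraspanin of leukocytes, by 0.67 (0.0177) and C1qa by 0.57 (0.0221). Without the first E14 vehicle array these 3 differences were 1.04, 0.95 and 0.75. In vehicle testes alone 0 members were called higher at E16 than at E14 by limma. Cd53 overlapped there, with 115.8 and 96.4 at E16 against 128.5 and 51.5 at E14. The E14 vinclozolin arrays, at 33 and 39.7, were the lowest for Cd53, so its averaged difference mixes stage and treatment.

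Between E14 and E13 the largest differences were those of C1qb, Laptm5 and Csf1r. Csf1r had 270.3 and 145.6 at E14, against 112.3 and 107 at E13. C1qb had 317.1 and 132 at E14, against 127.9 and 77.7 at E13. The E14 arrays lay above the E13 arrays for both genes, and in both the first E14 array was far above the second. Mrc1 was steady within E14, at 222.6 and 222.1, against 125.6 and 148.3 at E13.

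Laptm5 had 108.2 and 87.5 at E14, against 53.1 and 43.1 at E13. It was the 1 member of 10 called, with a difference of 0.83 (SE 0.22) and a limma adjusted p of 0.0489, against 2.93% of all probe sets called and 1.26% called higher. The second Laptm5 probe set, under the 40th percentile on all 4 of these arrays, differed by 0.64 with an adjusted p of 0.459. C1qb differed by 0.94 (0.0973), Csf1r by 0.78 (0.0809), C1qa by 0.67 (0.164) and Mrc1 by 0.64 (0.125) in the same limma fit. Of the 10 members, 9 were higher at E14 (7 with quantile normalization), 6 of them without overlap between the groups, against 26.4% of all probe sets higher without overlap, and their median of 0.56 compared with 0.07 over all tested probe sets. The Laptm5 call was lost under 15 of 18 alternatives, among them leaving out any 1 of the 4 arrays, with differences of 0.70 to 0.96. Leaving out both E13 arrays numbered 1 gave 0 calls by limma and a median of 0.57.

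Csf1r was then lower at E16 than at E14. It read 134.2 and 97.1 at E16, against 270.3 and 145.6 at E14, and the groups did not overlap. The difference was -0.72 (SE 0.24, limma adjusted p = 0.0373), the 1 call among 10 members, against 22% of all probe sets called in either direction and 12.6% called lower. Without the first E14 vehicle array the difference was -0.31 (0.393), and without the second E16 vehicle array it was -0.52 (0.23). With quantile normalization Csf1r was not called (-0.54, 0.133) and Tyrobp was called higher (0.96, 0.0404). With both treatments averaged Csf1r differed by -0.40 (0.067), and by -0.19 (0.351) when the first E14 vehicle array was also left out, so the call was lost in both.

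**Figure D2:**
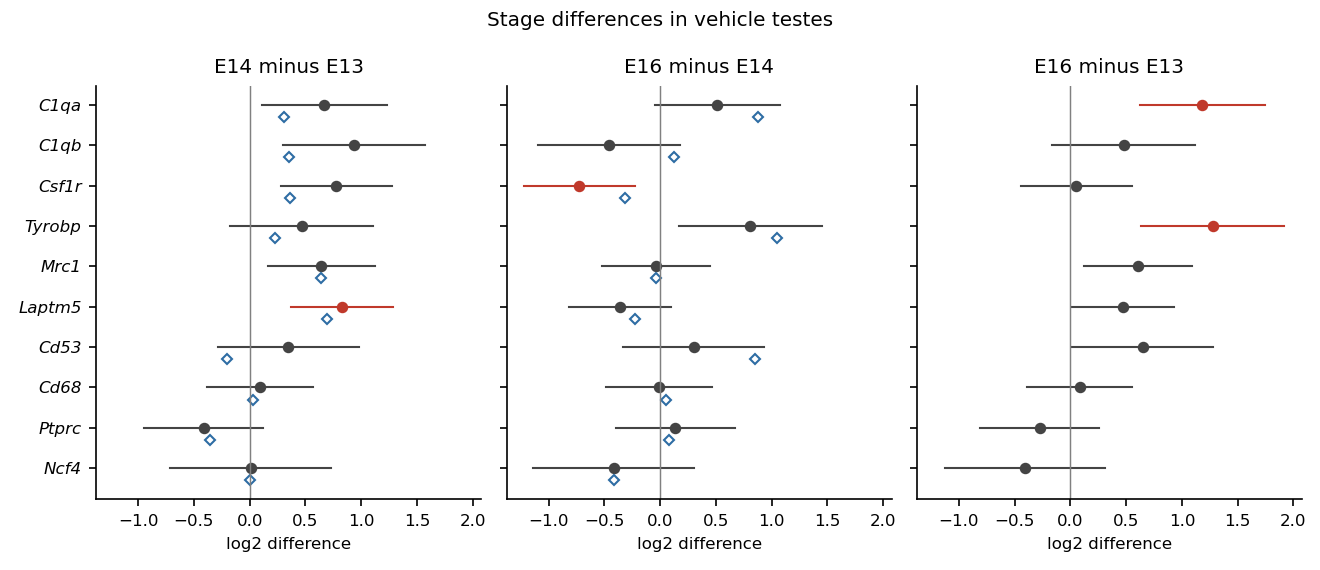
Log2 differences between stages in vehicle testes for the 10 genes, with 95% confidence intervals (limma, 2 arrays per group); red marks an adjusted p under 0.05. Hollow blue diamonds give the difference without the first E14 vehicle array, which moves C1qb at E14 minus E13 to 0.35 against 0.94 with it.

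The first E14 vehicle array stood above its replicate in most members. The members' summed signal was 1378 on it and 878 on the second E14 vehicle array, and 652.6 to 1075 on the other in utero arrays. It was the highest of the 12 in utero arrays for 4 of 10 members, Cd53, Laptm5, C1qb and Csf1r, or 40%. Over all tested probe sets that array was the highest for 11.79%. It lay above its replicate in 9 of 10 members with a median log2 difference of 0.37, and in 51.3% of all probe sets with a median of 0.01.

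By gene, the excess of the first E14 vehicle array over the second was 1.17 for C1qb, 1.1 for Cd53, 0.83 for Csf1r, 0.73 for C1qa and 0.48 for Tyrobp. It was 0.26 for Laptm5 and at most 0.12 for Cd68, Mrc1 and Ncf4, and Ptprc was lower on it by -0.11. Without the array, the members' median difference between E14 and E13 was 0.26 in place of 0.56, 8 of 10 were higher, and 0 were called by limma. Without the second array in its place, C1qb (1.52, adjusted p = 0.0118) and Csf1r (1.19, 0.0169) were called. With both treatments averaged, Csf1r (0.62, adjusted p = 0.0133) and Mrc1 (0.48, 0.0399) were called higher at E14 than at E13 by limma. The shares of all probe sets given for E14 against E13 are those of vehicle testes alone with all arrays kept. They do not apply to the calls of this paragraph. With both E13 arrays numbered 1 left out of that fit, Csf1r passed (0.66, 0.0359) and Mrc1 did not (0.31, 0.265). With both treatments averaged and the first E14 vehicle array left out, Csf1r differed by 0.41 (0.0656) and Mrc1 by 0.48 (0.0779), and Cd53 turned to -0.56 (0.0433), all limma adjusted p-values.

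Other lists also differed between these 2 arrays. The 8 resident macrophage genes summed to 3814 on it and 2482 on its replicate, the 10 erythroid markers to 15720 and 4955, and the 7 mesonephros markers to 2429 and 1589. The 6 Sertoli markers summed to 6156 and 13613, and the 11 endothelial markers to 3571 and 3944. Fos read 1535 on it and 39.8 on its replicate. The part of these differences in the members' excess was not tested.

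The members differed in how closely they followed one another. Each gene was set against the mean of the other 9 over the 12 in utero arrays, as a description, since these arrays share stages and scale. The correlation r was 0.75 for C1qa, 0.74 for Laptm5, 0.69 for Cd53, 0.59 for C1qb, 0.52 for Tyrobp, 0.45 for Csf1r, 0.42 for Mrc1 and 0.31 for Cd68. It was negative for the weakly measured Ncf4 (-0.21) and Ptprc (-0.36). Over the 11 arrays left without the first E14 vehicle array it was 0.73 for C1qa, 0.60 for Laptm5, 0.57 for Tyrobp and 0.54 for Cd53, but 0.27 for C1qb and 0.03 for Csf1r.

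Outside the set, the gene most like the mean of the members over the 12 arrays was Fcer1g, the Fc receptor gamma chain, with r of 0.952 among 11667 genes ranked. Without the first E14 vehicle array its r was 0.896 and it ranked 7. In vehicle testes Fcer1g had signals of 389.7 and 163.4 at E14, against 155.8 and 141.3 in the E13 group. C1qc, of the complement locus shown above, ranked 4 with r of 0.9, and 28 with r of 0.854 without that array. It had 188.4 and 79.7 at E14, against 80 and 40.9 at E13, in vehicle testes. The others among the first 10 were Slc31a2, Agtr2, Vcam1, Igfbp3, Rflna, Dkk3, Id1 and Gal3st4, with r of 0.869 to 0.905, and all of these were at their highest on the first E14 vehicle array. Without it they ranked 16 to 303.

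Other macrophage genes were counted from lists of known markers. Between E16 and E13 vehicle testes, 3 of 11 tested macrophage surface genes rose and 0 fell, with a median of 0.40. The counts of this and the next lists stand against 4.39% of all probe sets called higher and 8.55% called in either direction. Aif1, an actin-binding protein of macrophages, had 175.1 and 145 at E16, against 77.5 and 60.6 at E13 (difference 1.05, limma adjusted p = 0.00962). Ctss, a lysosomal protease of antigen-presenting cells, rose by 1.05 (0.0187) and Lyz2, lysozyme, by 1.72 (0.0329). Of 8 resident macrophage genes 1 rose, the transcription factor gene Maf (1.10, 0.00586), and of 9 leukocyte genes 4 rose, among them Cd52 (1.98, 0.0345) and Lsp1 (1.18, 0.0042), by limma. With both E13 arrays numbered 1 left out, where 2.18% of all probe sets were called higher, Aif1 (1.20, 0.0346), Maf (1.22, 0.0182) and Lsp1 (1.43, 0.00733) passed, and Ctss (0.90, 0.151), Lyz2 (1.12, 0.0763) and Cd52 (1.45, 0.253) did not.

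Complement proteases followed at the same stage. C1s rose by 1.27 (limma adjusted p = 0.00523) and C1r by 0.88 (0.0037), the 2 of 7 complement genes called. Neither is a macrophage-only gene. Runx1, a regulator of blood cell development, fell by 1.19 (0.000982), the only call among 10 genes of the Csf1 axis and myeloid regulators. None of 9 tested genes, listed as partners of Tyrobp or of related adaptor signalling, was called by limma at this comparison (the unadjusted p of Fcer1g was 0.0258). Of 10 erythroid markers 6 rose, and these summed to 18473 to 33206 at E16 and 2840 to 8764 at E13. Of 4 tested mast cell markers 2 rose, Cma1 (1.81, 0.000765) and Cpa3 (1.20, 0.0108). With both E13 arrays numbered 1 left out, C1s (0.0239), C1r (0.0315), Runx1 (0.0123), Cma1 (0.00959) and 2 of the 10 erythroid markers passed by limma adjusted p, and Cpa3 (0.102) did not. The part of blood-borne cells in the increase of the members was not tested.

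The antiandrogen comparison asks whether exposure of the embryo changed these genes. No member was called by limma in any comparison of vinclozolin or flutamide with its vehicle. At E13 the members' median difference was 0.11, 8 of 10 were higher with vinclozolin, and 0 had an unadjusted p under 0.05, against 1.78% of all probe sets. By adjusted p 0% of all probe sets was called. Without both E13 arrays numbered 1 the median was 0.17, with 8 of 10 higher and 0 called. At E16 the median was -0.09, 3 of 10 were higher and again 0 had an unadjusted p under 0.05, against 6.69% of all probe sets, with 0% called by adjusted p. Averaged over the 3 stages the median was -0.09, 0 members had an unadjusted p under 0.05, against 4.1% of all probe sets, and 0% of all was called.

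At E14 all 10 members were lower with vinclozolin than with vehicle, with a median of -0.38, although with quantile normalization 8 were lower and 2 higher. Of all tested probe sets 47.6% were higher. Cd53 had 33 and 39.7 with vinclozolin, against 128.5 and 51.5 with vehicle. Laptm5 had 61.7 and 60.1 with vinclozolin, against 108.2 and 87.5 with vehicle. For both genes the vinclozolin arrays lay below the vehicle arrays. Cd53 differed by -0.92 (95% confidence interval -1.55 to -0.29, unadjusted p = 0.00709 from limma) and Laptm5 by -0.56 (-1.02 to -0.10, 0.0191), the 2 members with an unadjusted p under 0.05, against 5.5% of all probe sets. Their adjusted p was 0.888.

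In all, 5 of 10 members were lower at E14 without overlap between the groups, C1qa, Cd53, Cd68, Laptm5 and Ncf4, against 13.1% of all tested probe sets lower without overlap. For 3 of them the nearest vinclozolin and vehicle arrays almost met, at 37.2 and 37.3 for Cd68, 34.1 and 34.5 for Ncf4, and 60 and 60.9 for C1qa. Ncf4 was also under the 40th percentile on each of these arrays. By adjusted p, 0 of 10 were called, against 0.00444% of all probe sets. These counts share the first E14 vehicle array with the stage comparison. Without it the median was -0.13, C1qb (0.06) and Csf1r (0.17) turned positive, and 8 of 10 were lower. Cd53 (-0.37) and Laptm5 (-0.43) were still lower without it, and both had an adjusted p of 1 (limma). With the second vehicle array left out in its place, Cd53 differed by -1.47 and was called (0.0239). Without the second E14 vinclozolin array, which read high for Xist, all 10 were lower with a median of -0.28, and 0 were called.

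A moderated F test of whether the vinclozolin effect differed between the stages called 0 members and 0% of all probe sets. The limma adjusted p was 0.983 for both Cd53 and Laptm5, the 2 members whose unadjusted values (0.027 and 0.0443) were under 0.05, against 4.46% of all probe sets. Cd53 had 82.6 and 83.4 with vinclozolin at E13, against 76.4 and 49.4 with vehicle, the opposite direction to E14. At E16 Cd53 overlapped, with 108 and 77.6 with vinclozolin, against 115.8 and 96.4 with vehicle.

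In culture gonad pairs were split between treatment and vehicle, but the labels do not say that same-numbered arrays hold the same pairs, and the fit compared group means without pairing. With vinclozolin at 50 µM, 0 members were called by limma and 0% of all probe sets was called, and 1 member, Ncf4, had an unadjusted p under 0.05, against 2.71% of all. Ncf4 had 52.4 and 54.3 with vinclozolin, against 5.3 and 19.3 with DMSO. Both vinclozolin arrays were at or above the 40th percentile and neither DMSO array was. The difference was 1.34 (SE 0.34, unadjusted p = 0.00112, adjusted p = 1, limma). Without the second vinclozolin array, which had the higher Xist signal, 0 members were called by limma, 6 of 10 were higher and their median was 0.14. Of 4 other genes of the phagocyte oxidase tested, 0 were called by limma. Among them Cybb, the catalytic subunit, ranked first and differed by -0.77 (limma adjusted p = 1, unadjusted 0.0554).

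Cd68, the lysosomal glycoprotein used to stain macrophages, had 57.8 and 60.6 with vinclozolin, against 37.5 and 48.5 with DMSO in culture (0.36, interval -0.12 to 0.83). Csf1r had 83.7 and 97 with vinclozolin, against 116.9 and 117.8 with DMSO (-0.33, -0.83 to 0.17). Neither difference passed the test, and their intervals include 0. With flutamide at 0.5 µM, 0 members were called or had an unadjusted p under 0.05 by limma, against 2.19% of all probe sets by unadjusted and 0% by adjusted p. Csf1r had 61.4 and 81.1 with flutamide, against 85.2 and 104.8 with ethanol (-0.35, -0.85 to 0.15). Doses and array sets differ between the compounds, so the values are given side by side only.

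**Figure D3:**
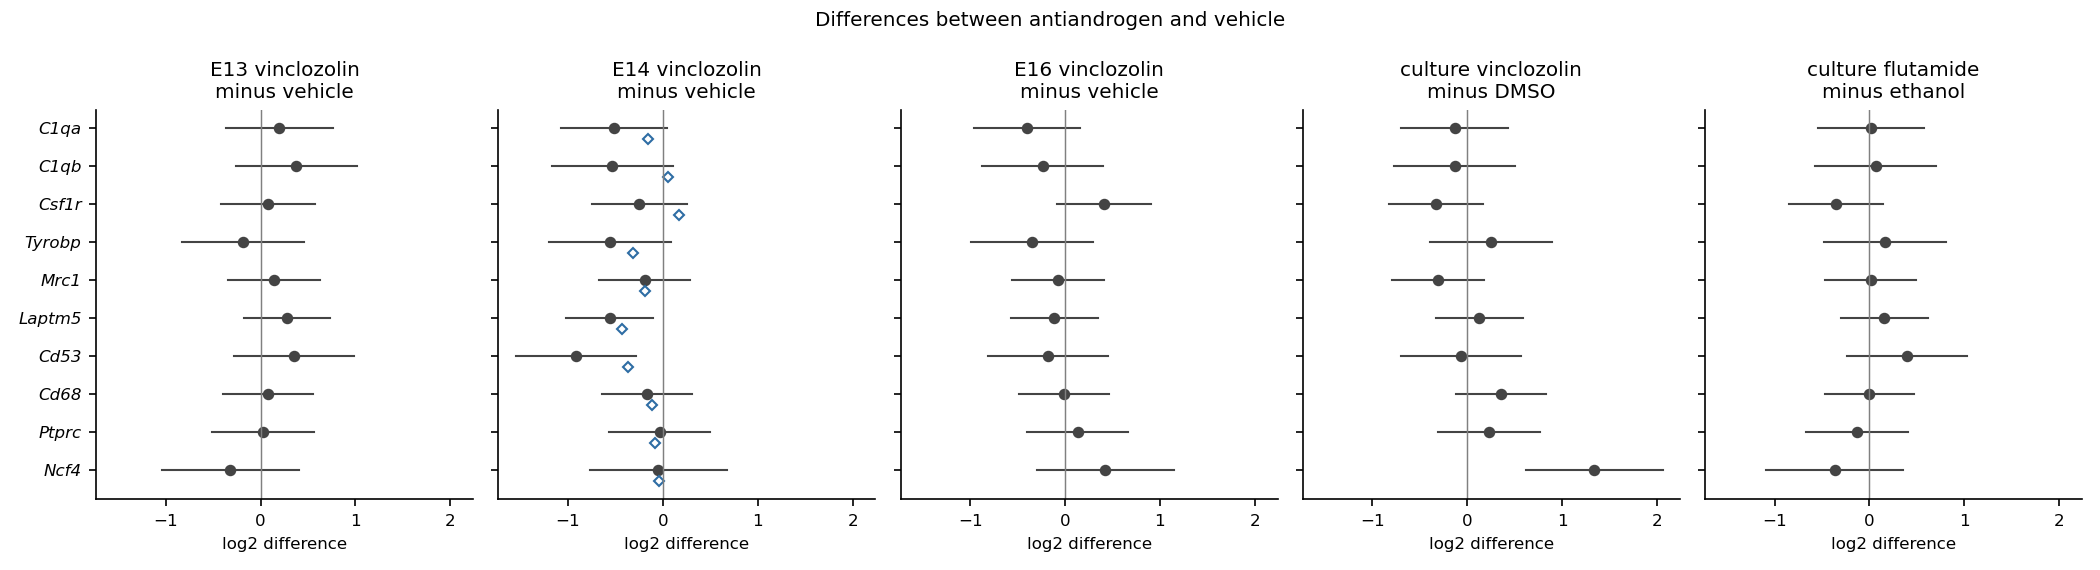
Log2 differences between antiandrogen and vehicle for the 10 genes at each stage in utero and in culture, with 95% confidence intervals (limma, 2 arrays per group). Hollow blue diamonds at E14 give the difference without the first E14 vehicle array, which moves Csf1r to 0.17 against -0.25 with it. No difference has an adjusted p under 0.05, and the Ncf4 interval in the vinclozolin culture is the farthest from 0.

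The cultures also bear on whether macrophage genes were still measured after 3 days outside the embryo. In DMSO culture 7 to 8 of the 10 members were at or above the 40th percentile, against 8 at E13. Ncf4 and Ptprc were under it on both DMSO arrays and Cd68 on the first. C1qb had 113.2 and 110.9 in DMSO culture, against 127.9 and 77.7 in E13 vehicle testes. Csf1r had 116.9 and 117.8 in DMSO culture, against 112.3 and 107 at E13. Mrc1 had 170.2 and 232 in DMSO culture, against 125.6 and 148.3 at E13. C1qb overlapped between the groups, and the cultured arrays of Csf1r and Mrc1 lay above those of E13. The fit, on values rescaled to 1 trimmed mean, gave differences of 0.09 (95% confidence interval -0.55 to 0.74) for C1qb, 0.04 (-0.47 to 0.54) for Csf1r and 0.45 (-0.04 to 0.93) for Mrc1. None of the 10 members was called, against 20.5% of all probe sets. The members' median was 0.11 and 0.02 was the median of all, and 1 member, Ncf4, had an unadjusted p under 0.05 (-0.90, 0.0214, limma), against 33.9% of all. Leaving out both E13 arrays numbered 1 also gave 0 calls, with a median of 0.26.

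Measured against E16, the age the gonads would have reached, C1qa was lower in culture. It had 56.3 and 55.6 in DMSO culture, against 154.3 and 101.2 in E16 vehicle testes, without overlap. The difference was -1.02 (SE 0.27, limma adjusted p = 0.0145), the 1 call among 10 members, against 21.9% of all probe sets called and 9.95% called lower. Tyrobp differed by -0.87 (0.0517), with 139.1 and 73.2 in culture, against 151.6 and 242.5 at E16. Of the 10 members 8 were lower, with a median of -0.35, against 0.05 over all tested probe sets. The C1qa call was lost without the first E16 vehicle array (-0.75, 0.152) and without either DMSO array (0.0531 and 0.085).

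Of 8 tested genes of resident macrophages, 4 were called lower and 1 higher in DMSO culture than at E13, against 10.3% of all probe sets called lower and 10.2% called higher. Lyve1, a hyaluronan receptor of resident macrophages and of lymphatic vessels, had 32.5 and 42.9 in DMSO culture, against 524.3 and 344.6 at E13 (-3.08, SE 0.30, limma adjusted p = 7.4e-06). Cd36, a scavenger receptor shared with endothelium, had 26.5 and 18 in DMSO culture, against 175.7 and 94.5 at E13 (-1.97, 0.00108). Stab1, a scavenger receptor also of sinusoidal endothelium, had 43.3 and 37.3 in DMSO culture, against 152.2 and 106.7 at E13 (-1.39, 0.00117).

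Pf4, shared with platelets, fell by 1.10 (limma adjusted p = 0.0451). Cd52, a leukocyte surface peptide, had 13.7 and 3.3 in DMSO culture, against 52.6 and 126 at E13 (-2.06, limma adjusted p = 0.0162). Of 9 tested leukocyte genes 2 were called, Cd52 and Cd48, against 20.5% of all probe sets called in either direction. Cd48 went the other way, at 0.40 with both E13 arrays numbered 1 left out. Both cultured values of Cd36 and Cd52, and 1 of the 2 of Lyve1 and of Stab1, were below the arrays' 40th percentiles of 40.7 and 39.6. Maf was the 1 resident macrophage gene called higher. Mpeg1 and Lgmn were also called higher, 2 of 11 tested macrophage surface genes, against 10.2% of all probe sets called higher. Mpeg1, the pore-forming perforin of macrophages, had 195.2 and 169.8 in DMSO culture, against 76.7 and 89.4 at E13 (0.95, 0.00367), Lgmn, legumain, rose by 0.82 (0.00158) and Maf by 0.87 (0.0119). With both E13 arrays numbered 1 left out, Lyve1 (-2.79), Cd36 (-1.57), Stab1 (-1.16), Cd52 (-2.58), Mpeg1 (0.86), Lgmn (0.78) and Maf (1.00) passed, with limma adjusted p-values of 0.00012 to 0.0262, and Pf4 did not (-1.25, 0.065). Whether these lists differ from the members was not tested.

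Of 10 erythroid markers 5 fell and 1 rose in DMSO culture, against the shares of all probe sets just given, with sums as deposited of 2835 to 2948, against 2840 to 8764 at E13. Of 11 endothelial markers 6 fell and 0 rose, with sums of 1399 to 1511 in culture, against 2430 to 2801 at E13. The 7 mesonephros markers summed to 506.1 to 842.9 in culture, against 1861 to 2230 at E13. Neutrophil markers summed to 20.3 to 33.8 in culture, against 17.5 to 268 at E13. With both E13 arrays numbered 1 left out, 6 erythroid and 4 endothelial markers were called lower, where 6.87% of all probe sets were. The part of these cell types in the lower Lyve1, Cd36, Stab1, Pf4 and Cd52 of DMSO culture was not tested. Culture and array set cannot be told apart. Counts for the ethanol cultures are with all arrays kept, and so compare with the DMSO counts of all arrays. Rescaled and set against E13, the ethanol arrays had 3 of 11 endothelial, 2 of 10 erythroid and 3 of 8 resident macrophage genes called in either direction. The share of all probe sets was 31.9%. Stab1 and Pf4 were not among these. Without both E13 arrays numbered 1, Lyve1 differed there by -1.25 and Cd36 by -1.23. The endothelial Tie1 differed by 0.91, Emcn by -0.35 and Sox18 by -0.44, and the erythroid Ahsp by -3.61 and Klf1 by -2.72. In DMSO culture, with the same arrays left out, Ahsp differed by -5.49 and Klf1 by -2.81.

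**Figure D4:**
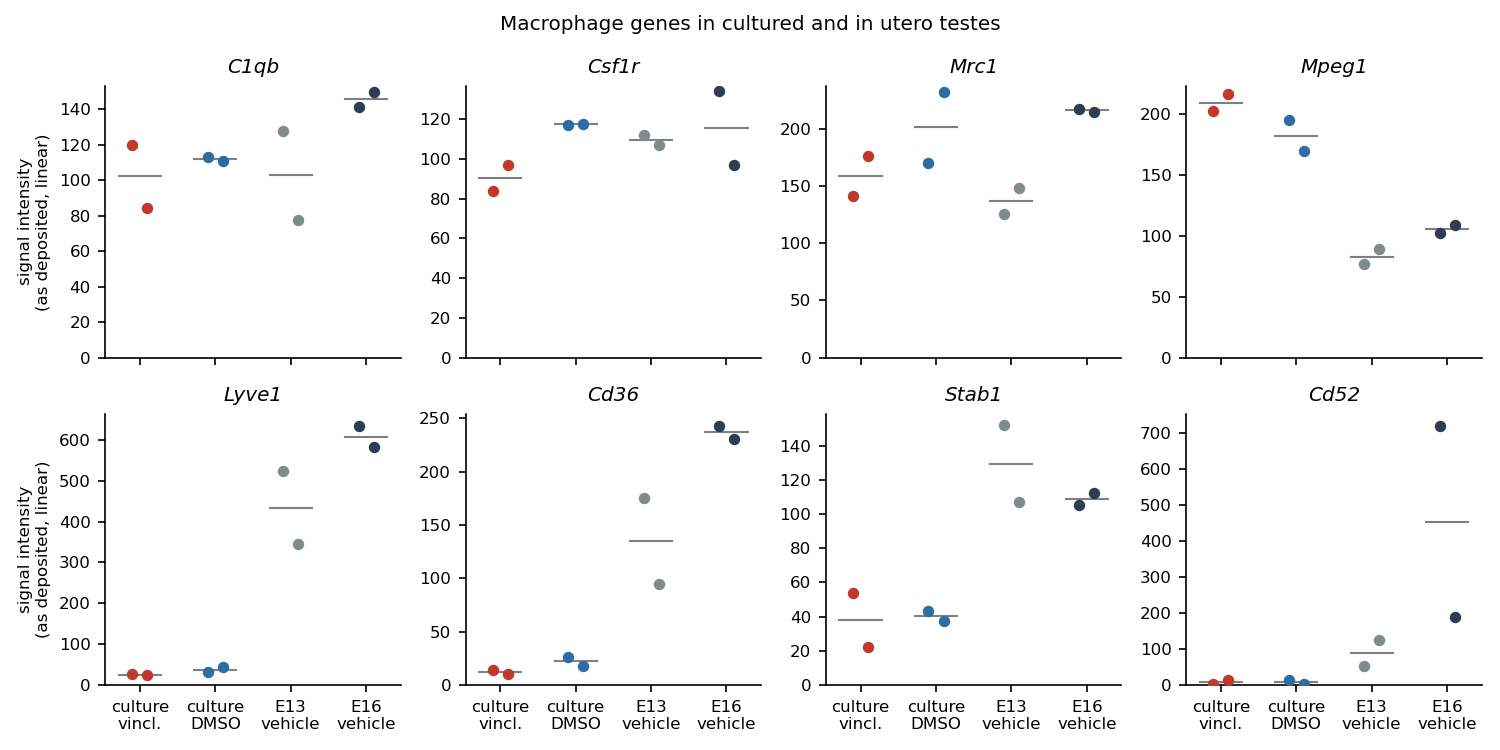
Signal intensity as deposited of 3 members (C1qb, Csf1r, Mrc1), Mpeg1 and 4 other macrophage or leukocyte genes in vinclozolin and DMSO cultures and in E13 and E16 vehicle testes; points are arrays and grey lines the mean of 2. Lyve1 is at or under 42.9 on the 4 cultured arrays, against 344.6 or more on the 4 arrays in utero, while C1qb and Csf1r keep a similar range.

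The ethanol cultures were read on the lower scale of the flutamide set, with the high actin ratio given above, so the direction of these differences depends on the rescaling. Immediate early genes summed to 11453 to 11487 on the rescaled ethanol arrays, against 2517 to 2736 at E13, and Xist was 168.2 and 203 as deposited. Their part in the members' differences was not tested. On rescaled values Csf1r had 167.2 and 205.7 in ethanol culture, against 112.3 and 107 at E13, and C1qa had 95.6 and 134.1, against 44.3 and 48.3. All 10 members were higher than at E13, with a median of 0.52 against 0.14 over all probe sets, but 9 of 10 were lower on the values as deposited and 6 of 10 higher with quantile normalization. On rescaled values 4 were called higher, C1qa (1.06, limma adjusted p = 0.00864), Mrc1 (0.76, 0.0196), Cd68 (0.73, 0.0262) and Csf1r (0.68, 0.0383), against 31.9% of all probe sets called and 19% called higher. As deposited, 0 were called, and with both E13 arrays numbered 1 left out, 1 was called. Leaving out the first or the second E13 vehicle array gave 2 calls each, the first ethanol array 1, and the second ethanol array 0.

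Relative to the median of all probe sets, 0.14 after rescaling, these differences are smaller by that amount. Against E16 vehicle testes, where that median was 0.19, 3 members were higher and 1 lower, against 38.6% of all probe sets called, 24% higher and 14.6% lower. They were Ptprc (0.87, limma adjusted p = 0.0163), Cd68 (0.64, 0.0385) and Csf1r (0.63, 0.0463), and, lower, Tyrobp (-0.92, 0.0256). As deposited, 0 were called higher and 6 lower. Without the second E16 vehicle array 1 was called, without the first ethanol array 0, and without the second ethanol array 2. The DMSO and ethanol comparisons share the E13 and E16 arrays.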

How the data were processed

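Signal intensity was made by the authors with MAS5 in GCOS, per the submitters' processing notes, and deposited on a linear scale; their versions were not given in those notes. Control probe sets (57 of 31099) were left out. Values were taken to log2 after adding a pseudocount of 16, so fold changes of low genes are understated. The 22526 probe sets at or above the 40th percentile of an array on at least 2 arrays entered a linear model (limma 3.58.1, R 4.3.3) of 1 mean for each group across the 20 arrays, with a variance trend and two-sided p-values adjusted by the Benjamini-Hochberg method (threshold 0.05). Cultures were set against in utero testes after rescaling to 1 trimmed mean (2% left out at each end). The fit was tested on simulated data. The number of arrays, 2 per group, limits the precision.

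Symbols came from the platform annotation, and locations and promoters from RefSeq (GRCr8). The members and lists were chosen with earlier results of these data known. The members are always named. From each other list up to 4 genes of smallest unadjusted p per comparison could be named, together with the 10 genes most alike by Pearson's r over the 12 in utero arrays. Single genes given to mark an array or a neighbouring cell type were chosen after their values were seen. Alternatives were other scalings, pseudocounts, filters, array subsets, a replicate block, no trend and leaving out each array. Leaving out both E13 arrays numbered 1, and averaging treatments without the first E14 vehicle array, were added after seeing the data.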

Additional observations from a re-analysis of the deposited data

How the results depend on the processing

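With 2 arrays per group, single arrays decided most calls. The counts of called members were the same under all alternatives for the comparisons of vinclozolin with vehicle at E13, E16 and over the stages, for both antiandrogens in culture, and for DMSO culture against E13. For E14 against E13 the count was 1 and became 0 with quantile normalization, rescaling to 1 trimmed mean, a pseudocount of 1, no filter, only the arrays compared, the replicate block, the probe set of largest variance, and without both E13 arrays numbered 1, and 2 with both treatments averaged. For E16 against E14 it was 1 and became 0 with no filter and with only the arrays compared, 2 with a pseudocount of 64, and 3 with both treatments averaged, with or without the first E14 vehicle array, but Csf1r was not among those 3 (-0.395 and -0.189). For E16 against E13 it was 2 and became 0 without both E13 arrays numbered 1. For DMSO culture against E16 it was 1 and became 2 with quantile normalization, a pseudocount of 64 and a filter at the median. For ethanol culture against E13 it was 4 and became 1 with quantile normalization, 0 as deposited and 1 without both E13 arrays numbered 1. For ethanol culture against E16 it was 4 and became 2 with quantile normalization, no filter, a filter at the median and only the arrays compared.

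Leaving out 1 array at a time gave 0 to 2 calls for each stage comparison, 0 to 1 for vinclozolin at E14, 0 to 2 for DMSO culture against E16, 0 to 2 for ethanol culture against E13, and 0 to 3 for ethanol culture against E16. Where 1 array remained in a group, its spread was taken from the remaining groups. Cd53 reversed between E14 and E13, to -0.563, with treatments averaged and the first E14 vehicle array left out. As deposited, ethanol culture reversed against E13 for Cd68 (-0.01), Csf1r (-0.184) and Mrc1 (-0.132), and against E16 for Cd68 (-0.093), Csf1r (-0.237) and Mrc1 (-0.737), since that set has the lower scale. The cause of the other changes was not tested. Same-numbered arrays deviated together at E13 (r = 0.602) but not across the other in utero groups (-0.193 to 0.137) or in culture (0.115 with vinclozolin, 0 with flutamide), so the numbers were not taken to pair samples. With the replicate block the Laptm5 difference between E14 and E13 had an adjusted p of 0.0764 (limma).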
